A study of Mus musculus with 17 samples.

Results

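The genes described here are 10 genes of the osteoclast program and of the RANK-OPG system, chosen by their symbols from the 35285 genes of the expression table: Tnfsf11, Tnfrsf11a, Tnfrsf11b, Nfatc1, Dcstamp, Ocstamp, Oscar, Acp5, Ctsk and Calcr. Their levels were read in cochlear RNA of 17 wild-type male C57BL/6J mice aged 8 weeks. The control group held 3 mice injected with saline and not exposed to noise. The NE group held 7 mice exposed to noise of 8 to 16 kHz at 100 dB for 2 h. The brimonidine group held 7 mice exposed to the same noise and given brimonidine, an agonist of the alpha-2 adrenergic receptor, at 1 mg/kg in 3 intraperitoneal injections from the day before to the day after exposure. RNA was taken on day 2 after exposure, 1 library a mouse. The methods do not say whether NE mice were injected with saline, and no group received brimonidine without noise in these libraries. C57BL/6J carries a Cdh23 variant that brings early age-related hearing loss.

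Osteoclasts are multinucleated cells of the macrophage lineage that dissolve bone, and the cochlea lies in the bony otic capsule, which is known for very little remodeling. RANKL (Tnfsf11), made by bone cells and epithelia among others, binds RANK (Tnfrsf11a) on osteoclast precursors. OPG (Tnfrsf11b) is a secreted decoy receptor that captures RANKL, and it is known to be abundant in the inner ear. RANK signaling together with immunoreceptor co-stimulation raises the transcription factor NFATc1, under which precursors fuse and make the enzymes of resorption.

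Levels are given as FPKM, counted fragments scaled by the exon length of the gene and by the total of the library, which can be compared between genes. The libraries held 14457733 to 18288854 counted fragments. All 10 genes were above 0 in all 17 libraries. Control 2 stood apart, with a median correlation of 0.831 with the other libraries against 0.947 to 0.981 for the rest, and where leaving it out ended or turned a result against the control group, the value without it is given too. The summed level of 8 hindbrain neuron genes was 166, 445 and 170 FPKM in control 1, 2 and 3, 18.3 to 25.1 FPKM in the NE group and 19.1 to 64.8 FPKM in the brimonidine group, where brimonidine 5 was highest. The 8 neutrophil genes summed to between 9686 and 64544 FPKM, lowest in control 2, and the 12 osteoblast and osteocyte genes to between 1162 and 2482 FPKM, highest in control 2. The labels call the material cochlear cells of a cell type named interstitial cells, and the methods name cochleae in one place and basilar membrane tissue in another, so how much bone was dissected with it is not known. Blood-forming, bone and neural genes were all present, as were the 12 genes of cochlear epithelium, ligament and stria, which summed to between 547 and 1368 FPKM.

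By level, the genes spanned a wide range, with the secreted and lysosomal enzymes of mature osteoclasts at the top. Ctsk averaged 135 ± 31.9 FPKM (SD, n = 17), Acp5 69.8 ± 11.7 FPKM, Tnfrsf11b 26.0 ± 6.84 FPKM and Nfatc1 11.5 ± 1.23 FPKM. Oscar averaged 2.99 ± 0.669 FPKM, Tnfsf11 2.13 ± 0.732 FPKM, Tnfrsf11a 1.62 ± 0.202 FPKM, Dcstamp 1.61 ± 0.390 FPKM, Ocstamp 0.942 ± 0.216 FPKM and Calcr 0.341 ± 0.165 FPKM. The order from Ctsk to Acp5, Tnfrsf11b, Nfatc1 and Oscar was the same in 17 of 17 libraries. Below that the neighbours crossed: Oscar was above Tnfsf11 in 14 of 17 libraries, Tnfsf11 above Tnfrsf11a in 14, Tnfrsf11a above Dcstamp in 10 and Dcstamp above Ocstamp in 16, so that Tnfrsf11a and Dcstamp could not be ordered. Calcr was the lowest of the 10 in every library.

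**Figure D1:**
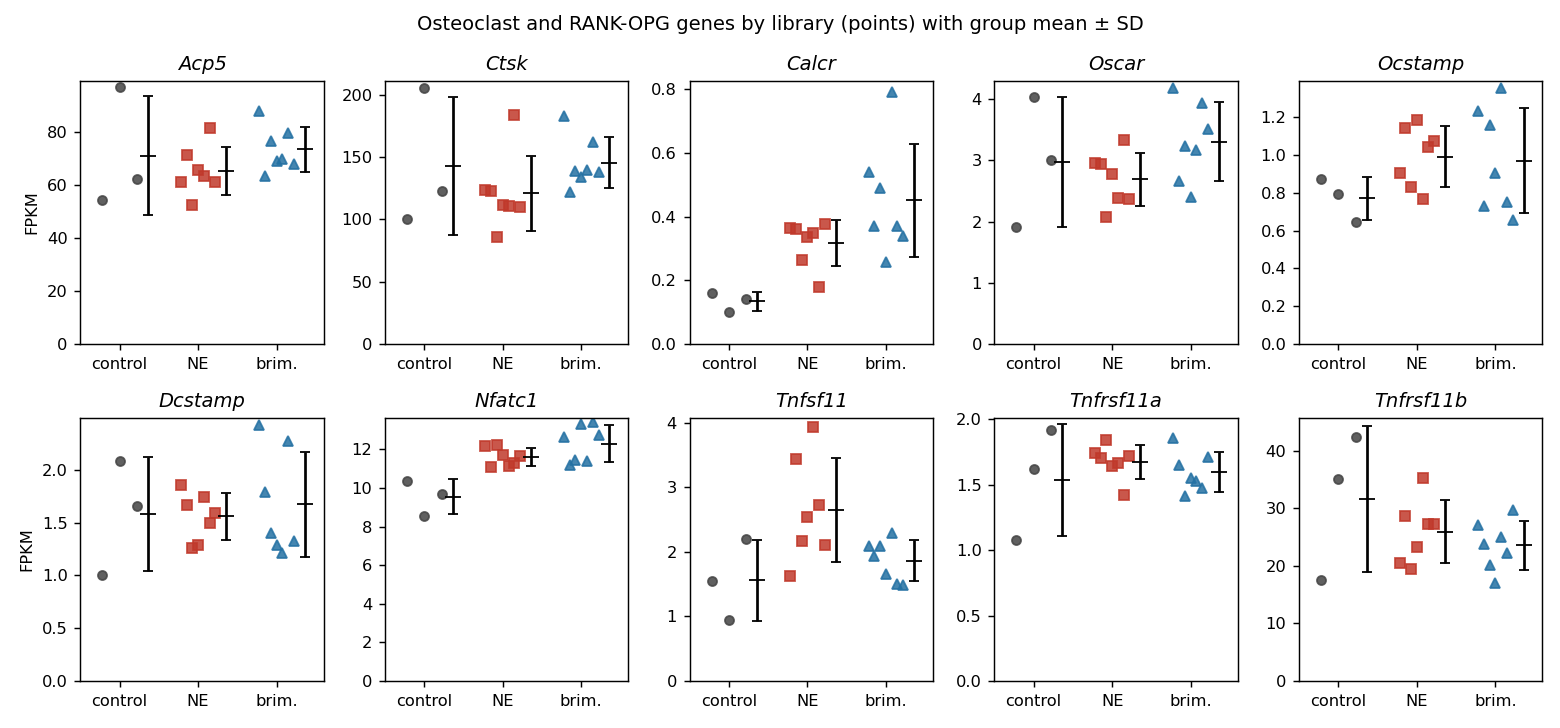
FPKM of the 10 genes (y axis, each panel from 0) in the 3 control, 7 NE and 7 brimonidine libraries (x axis, 1 point a library), with the group mean and SD as a bar. Nfatc1 and Calcr were the genes in which all exposed libraries lay above all controls, and Tnfsf11 was highest in NE 5 at 3.93 FPKM.

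Tnfsf11, on chr14:78277445-78308043 (minus strand), encodes RANKL, the ligand that starts osteoclast formation. Its level was 1.55, 0.943 and 2.20 FPKM in control 1, 2 and 3. In the NE group it ran from 1.63 to 3.93 FPKM with a median of 2.54, and in the brimonidine group from 1.48 to 2.29 FPKM with a median of 1.94. The highest libraries were NE 5 and NE 2, the latter at 3.43 FPKM, the groups overlapped, and 4 of 7 NE libraries were above all controls. NE exceeded control by a log2 fold change of 0.51 on the FPKM + 1 scale (SE 0.21, 95% interval 0.06 to 0.96), which did not pass over all genes (limma adjusted p = 0.115, exact two-sided permutation p = 0.05 unadjusted). Without control 2 the difference was 0.33 (limma adjusted p = 0.444). Between the exposed groups the mean was 1.86 ± 0.317 FPKM with brimonidine (SD, n = 7) and 2.65 ± 0.799 FPKM without (SD, n = 7), a ratio of 0.704. All 7 brimonidine libraries lay under the NE mean, and 2 of them under every NE library. The log2 fold change was -0.33 (95% interval -0.59 to -0.06), with an exact permutation p of 0.028 unadjusted and a limma adjusted p of 0.792 over 15707 genes. Against control, brimonidine differed by 0.18 (95% interval -0.16 to 0.52, limma adjusted p = 0.414), and without control 2 by -0.0026 (limma adjusted p = 0.993), so no direction can be given. Bulk tissue RNA cannot tell more cells of a type from more RNA per cell, here and for every gene below.

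Tnfrsf11b, on chr15:54250619-54278484 (minus strand), encodes OPG, and was far above its ligand in every library. It measured 17.6, 35.1 and 42.3 FPKM in control 1, 2 and 3. The NE libraries ran from 19.4 to 35.3 FPKM with a median of 27.3, and the brimonidine libraries from 17.1 to 29.8 FPKM with a median of 23.9. Control 3 was the highest library of all, control 2 lay just under the highest NE library and control 1 just above the lowest brimonidine library, so the 3 groups overlapped. The log2 fold change was -0.21 for NE against control (95% interval -0.76 to 0.34, limma adjusted p = 0.571), -0.12 for brimonidine against NE (95% interval -0.41 to 0.16, limma adjusted p = 0.941) and -0.34 for brimonidine against control (95% interval -0.87 to 0.19, limma adjusted p = 0.328). Without control 3, the highest, NE against control was 0.033 (limma adjusted p = 0.936), and without control 1, the lowest control, brimonidine against control passed (-0.70, limma adjusted p = 0.0197). The spread between mice was well above the counting error: the coefficient of variation was 26.3% over the 17 libraries, where counting alone gives 2.83%.

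Tnfrsf11a, on chr1:105780718-105847981 (plus strand), encodes RANK, the signaling receptor, and was, among the exposed libraries, the steadiest of the weakly expressed genes. It measured 1.07, 1.62 and 1.92 FPKM in control 1, 2 and 3, 1.42 to 1.84 FPKM in the NE group and 1.41 to 1.86 FPKM in the brimonidine group. The coefficient of variation was 7.76% in NE and 9.44% in brimonidine libraries, close to the 7.55% and 7.70% that counting gives, but 27.9% in the controls, where that of Ocstamp was 14.8%. The interval of the log2 fold change was -0.16 to 0.34 for NE against control and -0.16 to 0.08 for brimonidine against NE.

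The balance of ligand and decoy is the quantity by which this system is usually described. The ratio of Tnfsf11 to Tnfrsf11b in FPKM was 0.088, 0.0269 and 0.0519 in control 1, 2 and 3. In the NE group it ran from 0.0773 to 0.119 with a median of 0.109, and in the brimonidine group from 0.0497 to 0.104 with a median of 0.0814. OPG RNA was thus in excess in every library, on average 22.6-fold in the control group, 10.1-fold in NE and 13.0-fold in brimonidine libraries. On the log2 scale, with 0.1 FPKM added to each gene, NE was 0.97 above control, or 1.95-fold (exact two-sided permutation p = 0.025, 0.075 adjusted over the 3 comparisons). Control 1 lay inside the NE range, and control 2, the library that stood apart, had the lowest ratio. Without control 2 the difference was 0.55 (exact p = 0.0833), and without control 3 it was 0.98 (exact p = 0.0833). Brimonidine was below NE by 0.32 on the log2 scale (exact permutation p = 0.0624, adjusted 0.0935) and above control by 0.65 (exact permutation p = 0.1, adjusted 0.1), which was 0.23 without control 2 (exact p = 0.528) and 1.05 without control 1 (exact p = 0.0556). The smallest p that 7 against 3 libraries allow is 0.00833.

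**Figure D2:**
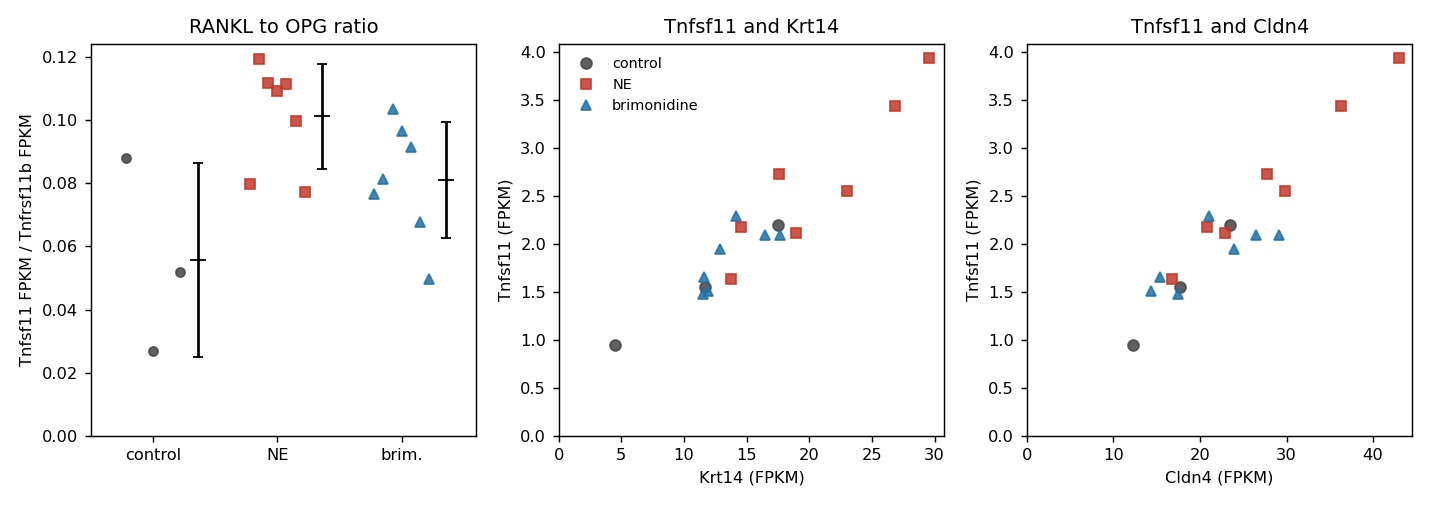
Left, the ratio of Tnfsf11 to Tnfrsf11b FPKM (y axis from 0) by library with group mean and SD; the NE mean was 0.101, the brimonidine mean 0.0810 and the control mean 0.0556. Middle and right, Tnfsf11 (y axis, FPKM) against Krt14 and Cldn4 (x axis, FPKM) in the same 17 libraries, which rise together, with NE 5 highest in all 3 genes.

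The 3 genes whose levels followed Tnfsf11 most closely over the 17 libraries were epithelial genes: Cldn4, a tight junction claudin (r = 0.937 of log2(FPKM + 1)), Krt14, a keratin of basal epithelial cells (r = 0.925), and Krt17, a keratin of stressed epithelium (r = 0.886). Without control 2 these were 0.921, 0.924 and 0.839. The likeness was present inside both exposed groups, where Krt14 and Tnfsf11 had r = 0.901 over the 7 NE libraries and 0.786 over the 7 brimonidine libraries. Krt14 ran from 13.7 to 29.5 FPKM in the NE group, from 11.5 to 17.6 FPKM in the brimonidine group and from 4.50 to 17.5 FPKM in the control group. Its mean was 20.6 ± 6.06 FPKM after noise alone (SD, n = 7) and 13.7 ± 2.46 FPKM with brimonidine (SD, n = 7), with a limma adjusted p of 0.632 between them. Krt17 rose in the NE group against control, by a log2 fold change of 1.08 (limma adjusted p = 0.0469), but not without control 2 (0.72, limma adjusted p = 0.228), and it passed in 3 of 10 fits that left out 1 library. These correlations describe libraries that share preparation and carry no test. For Tnfrsf11b the closest genes were Chst7, a sulfotransferase (r = 0.901), Moxd1, a monooxygenase-like gene (r = 0.889), and Shroom3, a regulator of epithelial shape (r = 0.884). For Tnfrsf11a they were Fbxo32 (r = 0.802), Abca1 (r = 0.801) and Alcam (r = 0.792).

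Nfatc1, on chr18:80606205-80713071 (minus strand), encodes NFATc1, the transcription factor of osteoclast differentiation, which lymphocytes and endothelial cells also use. With each pair of groups in its own unweighted model, all libraries kept and FPKM as deposited, it was the only gene of the 9 tested by limma that passed an adjusted p of 0.05 in any comparison. It measured 10.4, 8.57 and 9.68 FPKM in control 1, 2 and 3. It ran from 11.1 to 12.2 FPKM in the NE group with a median of 11.6, and from 11.2 to 13.4 FPKM in the brimonidine group with a median of 12.6. All 14 exposed libraries lay above all 3 controls, as was the case for 3.24% of the genes tested in NE and 5.07% in brimonidine. NE rose above control by a log2 fold change of 0.26 (SE 0.07, 95% interval 0.10 to 0.42, limma adjusted p = 0.035), a ratio of means of 1.22. Brimonidine rose above control by 0.34 (SE 0.08, 95% interval 0.15 to 0.52, limma adjusted p = 0.0218), a ratio of means of 1.29. The exact permutation p was 0.00833 in both, the smallest possible. Brimonidine and NE differed by 0.07 (95% interval -0.03 to 0.17, limma adjusted p = 0.899). Control 2 was the lowest library: without it the log2 fold changes were 0.19 (limma adjusted p = 0.112) and 0.27 (limma adjusted p = 0.0708), and neither passed. The NE comparison also did not pass without control 3 and when any NE library other than NE 6 was left out, with limma adjusted p of at most 0.112. After rescaling the libraries to equal totals the log2 fold changes were about as large, 0.24 and 0.34, but neither passed (limma adjusted p = 0.117 and 0.0603). The hindbrain neuron sums given above separated the control libraries from the exposed ones too, and their part in the rise was not tested.

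The genes that followed Nfatc1 most closely were Btnl9 (r = 0.942), Usp4, a deubiquitinase (r = 0.936), and Kif14, a mitotic kinesin (r = 0.910), none of them an osteoclast gene. Btnl9 rose with brimonidine against control by a log2 fold change of 0.51 (limma adjusted p = 0.0124), and its difference of 0.39 in NE did not pass (limma adjusted p = 0.0518). Control 2 was its lowest library, at 1.78 FPKM, and fits without control 2 are not given for it. Usp4 passed in neither (0.16 and 0.19, limma adjusted p = 0.115 and 0.0631). Kif14 rose in both comparisons with control, by a log2 fold change of 0.51 in NE (limma adjusted p = 0.0338) and 0.56 with brimonidine (limma adjusted p = 0.0202). Without control 2 these were 0.32 and 0.37 and neither passed (limma adjusted p = 0.129 and 0.0570), and the NE rise passed in 3 of 10 fits that left out 1 library. Among the 14 exposed libraries Nfatc1 and Tnfsf11 ran opposite ways, with r = -0.744 and rho = -0.758 (permutation p = 0.00221, adjusted over 28 pairs 0.0155; for rho 0.00251, adjusted 0.0176). Within the NE group r was -0.882 and within the brimonidine group -0.760. Without the 2 libraries farthest from the median of Nfatc1 it was -0.685. After rescaling each library by its median ratio to the others, r was -0.616 and the adjusted p 0.112, so this relation depended on the scaling. It also depended on the libraries taken: over all 17, controls included, r was 0.0907.

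Dcstamp and Ocstamp encode the transmembrane proteins that osteoclast precursors need to fuse. Dcstamp, on chr15:39745932-39760934 (plus strand), measured 1.01, 2.08 and 1.65 FPKM in control 1, 2 and 3, 1.26 to 1.86 FPKM in the NE group and 1.21 to 2.42 FPKM in the brimonidine group. Its groups overlapped, and the log2 fold change was 0.01 for NE against control (95% interval -0.30 to 0.31) and 0.05 for brimonidine against NE (95% interval -0.18 to 0.28). Brimonidine 1 and brimonidine 6 were the highest libraries at 2.42 and 2.28 FPKM. Ocstamp, on chr2:165393760-165400405 (minus strand), measured 0.870, 0.793 and 0.646 FPKM in control 1, 2 and 3. It ran from 0.764 to 1.18 FPKM in the NE group and from 0.658 to 1.35 FPKM in the brimonidine group. In the NE group 5 of 7 libraries were above all controls, with a log2 fold change of 0.17 (95% interval -0.08 to 0.41, limma adjusted p = 0.315, exact permutation p = 0.075). These are 38 to 88 fragments a library for Ocstamp and 29 to 87 for Dcstamp. The genes most like Dcstamp were Dmp1, an osteocyte matrix gene (r = 0.723), Epb41l2 (r = 0.723) and Atp6v0d2, a proton pump subunit of osteoclasts (r = 0.719).

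Oscar, Acp5 and Ctsk moved together from mouse to mouse, more closely than any other members. Oscar, on chr7:3609813-3616157 (minus strand), encodes a collagen-binding co-stimulatory receptor. Acp5, on chr9:22126727-22135711 (minus strand), encodes the tartrate-resistant acid phosphatase by which osteoclasts are stained, and overlaps the opposite-strand transcript AC163623.3. Ctsk, on chr3:95499256-95509362 (plus strand), encodes cathepsin K, the main collagenase of resorption. Because their levels ran in parallel, the 250 bases before their RefSeq transcription starts on GRCm38.p6 are shown. Capitals mark, on either strand, GGAAA (the NFAT core), TGANTCA (AP-1), GAGGAA (PU.1) and TCANGTG (an E-box read by MITF). GGAAA and GAGGAA can overlap. Ctsk lies at chr3:95498960-95499209 on the plus strand and Oscar at chr7:3616158-3616407 on the minus strand. Acp5 has 3 starts on the minus strand, at chr9:22135747-22135996, chr9:22131866-22132115 and chr9:22130599-22130848, from upstream to downstream.
Ctsk: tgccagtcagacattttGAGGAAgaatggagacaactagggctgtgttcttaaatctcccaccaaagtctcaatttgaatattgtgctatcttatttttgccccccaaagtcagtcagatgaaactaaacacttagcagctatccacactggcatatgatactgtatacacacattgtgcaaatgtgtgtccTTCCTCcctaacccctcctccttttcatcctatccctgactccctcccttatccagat
Oscar: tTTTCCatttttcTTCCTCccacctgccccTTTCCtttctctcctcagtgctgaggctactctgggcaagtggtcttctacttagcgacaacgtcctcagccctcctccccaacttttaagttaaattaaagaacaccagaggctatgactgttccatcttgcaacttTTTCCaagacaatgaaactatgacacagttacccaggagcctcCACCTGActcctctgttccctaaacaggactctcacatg
Acp5, upstream start: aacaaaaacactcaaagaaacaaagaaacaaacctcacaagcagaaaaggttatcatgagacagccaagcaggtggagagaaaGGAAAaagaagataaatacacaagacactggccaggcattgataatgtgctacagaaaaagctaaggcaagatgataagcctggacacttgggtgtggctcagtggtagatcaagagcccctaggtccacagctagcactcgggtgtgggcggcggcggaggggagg
Acp5, middle start: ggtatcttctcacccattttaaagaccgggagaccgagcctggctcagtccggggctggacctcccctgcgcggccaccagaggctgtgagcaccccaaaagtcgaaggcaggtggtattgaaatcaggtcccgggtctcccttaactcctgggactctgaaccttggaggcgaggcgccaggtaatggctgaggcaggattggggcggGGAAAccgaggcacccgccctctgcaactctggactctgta
Acp5, downstream start: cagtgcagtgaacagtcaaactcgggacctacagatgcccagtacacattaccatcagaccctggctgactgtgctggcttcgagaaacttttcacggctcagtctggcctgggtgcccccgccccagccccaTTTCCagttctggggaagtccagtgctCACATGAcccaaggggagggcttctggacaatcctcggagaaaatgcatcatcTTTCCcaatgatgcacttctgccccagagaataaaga

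The window of Ctsk held 2 PU.1 matches and no other. Oscar held 3 NFAT cores, 1 PU.1 match and 1 MITF match. The upstream and the middle start of Acp5 held 1 NFAT core each, and the downstream start 2 NFAT cores and 1 MITF match. Of 32851 such mouse windows, 55.6% held GGAAA, 23.2% GAGGAA, 12.2% TCANGTG and 6.75% TGANTCA, so these matches are common. No motif of the 4 was found in windows of all 3 genes. A window was on file for 6 of the 10 genes.

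Acp5 measured 54.3, 97.0 and 62.5 FPKM in control 1, 2 and 3. It ran from 52.7 to 81.7 FPKM in the NE group with a median of 63.6, and from 63.3 to 87.9 FPKM in the brimonidine group with a median of 69.9. Ctsk measured 100.2, 205 and 122 FPKM in the controls, 86.2 to 183 FPKM in the NE group with a median of 111, and 122 to 183 FPKM in the brimonidine group with a median of 139. Oscar measured 1.91, 4.03 and 3.00 FPKM in the controls, 2.07 to 3.33 FPKM in the NE group with a median of 2.78, and 2.39 to 4.18 FPKM in the brimonidine group with a median of 3.24. The same libraries were at the ends of all 3 genes: control 2 and brimonidine 1 were high, NE 6 was the highest of its group, and control 1 and NE 3 were low. The groups overlapped for all 3 genes.

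None of the 3 passed in a comparison. For NE against control the log2 fold change was -0.09 for Acp5 (95% interval -0.47 to 0.30), -0.20 for Ctsk (95% interval -0.73 to 0.33) and -0.08 for Oscar (95% interval -0.44 to 0.28). Without control 2, the highest control, these became 0.15, 0.09 and 0.10, so no direction can be given. Brimonidine was above NE by 0.17 for Acp5, 0.28 for Ctsk and 0.21 for Oscar on the log2 scale. Unadjusted, the exact permutation p was 0.0967, 0.0723 and 0.0664, and over all genes the limma adjusted p was 0.870, 0.865 and 0.865. The 3 genes are not independent tests, since they moved together. All 7 brimonidine libraries were above the NE mean for Ctsk, 6 of 7 for Acp5 and 5 of 7 for Oscar. Brimonidine against control gave 0.08, 0.08 and 0.13, with limma adjusted p of 0.749, 0.795 and 0.612. Without control 2 these were 0.32, 0.38 and 0.32 (limma adjusted p = 0.119, 0.134 and 0.276), and without control 1, the lowest control, they were -0.089, -0.14 and -0.075.

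**Figure D3:**
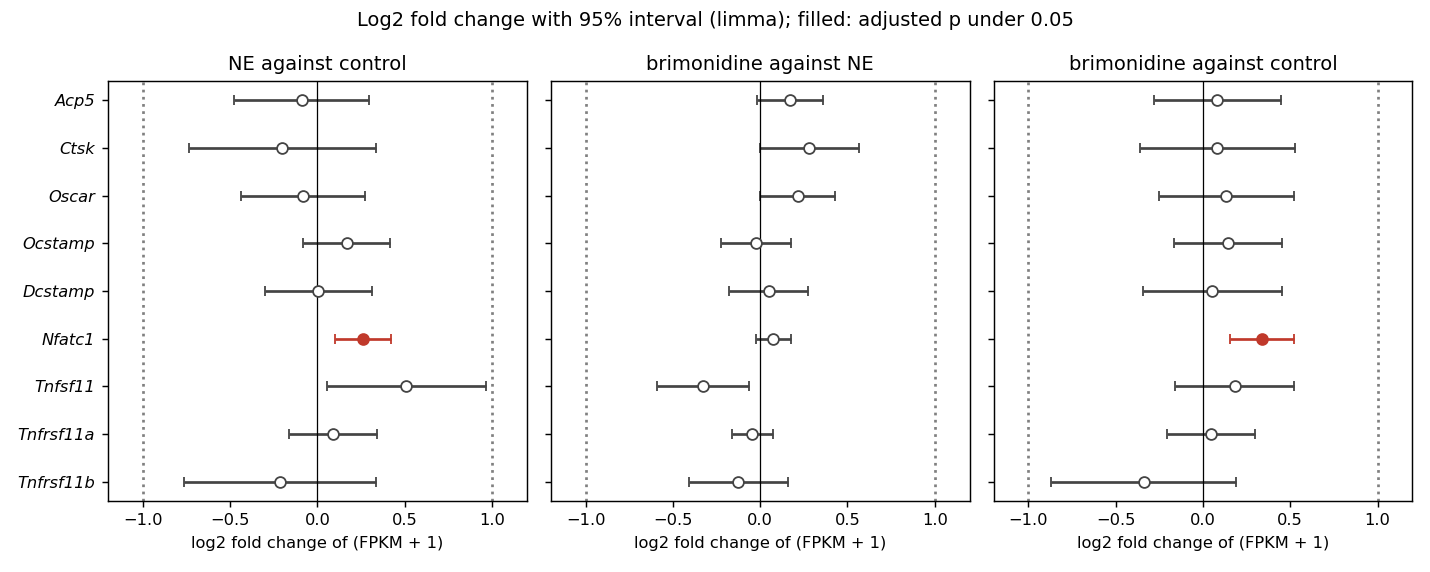
Log2 fold change of FPKM + 1 (x axis) with its 95% interval for the 9 genes tested by limma (y axis), in the 3 comparisons. Filled points passed an adjusted p of 0.05, which Nfatc1 did in both comparisons with control, and dotted lines mark a log2 fold change of 1, which no gene reached.

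Over the 14 exposed libraries, Acp5 and Ctsk had r = 0.941 and rho = 0.886 (permutation p = 1e-05, the smallest that 100000 permutations give, adjusted over 28 pairs 0.00028; for rho 0.00011, adjusted 0.00154). Within the NE group r was 0.926 and within the brimonidine group 0.951. Ctsk and Oscar had r = 0.861 and rho = 0.899 (permutation p = 5e-05, adjusted 0.0007; for rho 4e-05, adjusted 0.00112), with 0.893 and 0.850 inside the groups. Acp5 and Oscar had r = 0.850 and rho = 0.811 (permutation p = 0.00016, adjusted 0.00149; for rho 0.00064, adjusted 0.00597), with 0.865 and 0.790 inside the groups. Leaving out the 2 libraries farthest from the median left r at 0.876, 0.876 and 0.712. Of the 28 pairs among 8 genes, these 3 and Nfatc1 with Tnfsf11 passed. The ratio of Ctsk to Acp5 was 1.92 ± 0.167 (SD, n = 17) and stayed between 1.63 and 2.25, while Ctsk itself varied with a coefficient of variation of 23.7%, where counting alone gives 1.69%. Oscar to Acp5 was 0.0427 ± 0.00499 (SD, n = 17). Among all genes, Ctsk was the closest to Acp5 (r = 0.955 over 17 libraries) and Oscar the next (r = 0.874), followed by Gtf3c5 (r = 0.818). The third gene of Ctsk was Serpine2 (r = 0.805) and that of Oscar was Gpr182 (r = 0.821). The trio did not rise with RANK: Acp5 and Tnfrsf11a had r = -0.457 over the exposed libraries (permutation p = 0.0996, adjusted 0.292; rho = -0.473, permutation p = 0.0903, adjusted 0.421), with -0.902 inside NE and 0.167 inside brimonidine, and -0.846 without the 2 libraries farthest from the median of Acp5. None of 80 pairs of a member with the summed level of a cell type list passed, with adjusted p of 0.601 or more for r.

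**Figure D4:**
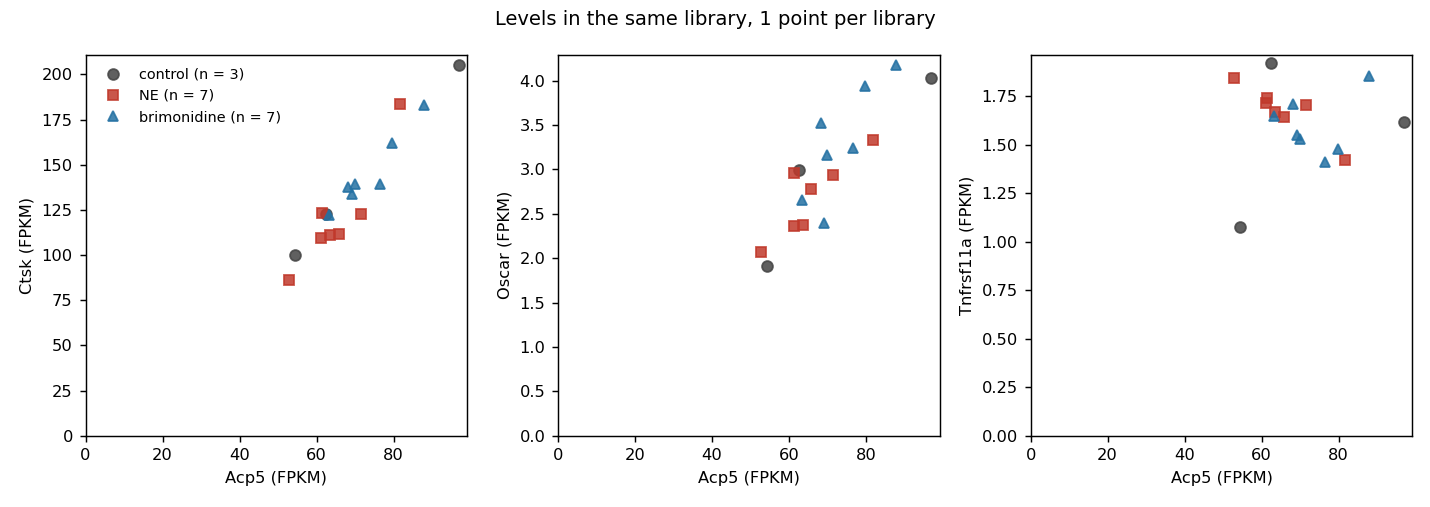
Ctsk, Oscar and Tnfrsf11a (y axes, FPKM) against Acp5 (x axis, FPKM), 1 point a library, by group. Ctsk and Oscar rise with Acp5 in all groups (r = 0.955 and 0.874 over 17 libraries), and Tnfrsf11a does not (r = 0.00667).

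Calcr, on chr6:3685680-3764714 (minus strand), encodes the calcitonin receptor, which stops resorption when it binds calcitonin and marks mature osteoclasts, and which some neurons also make. It was the member with the largest ratio of means, at the lowest level. It measured 0.159, 0.101 and 0.143 FPKM in control 1, 2 and 3, from 9, 6 and 9 fragments. It ran from 0.178 to 0.377 FPKM in the NE group with a median of 0.350, and from 0.258 to 0.791 FPKM in the brimonidine group with a median of 0.372. All 14 exposed libraries were above all 3 controls, and brimonidine 5, the exposed library highest in hindbrain neuron genes, was the highest. The 3 controls, lowest in Calcr, were higher in those neuron genes (166, 445 and 170 FPKM, against 64.8 FPKM in brimonidine 5). Control 2 was the highest library in them and the lowest in Calcr. Which cells made the Calcr RNA was not tested. Of the genes outside the limma test that were above 0 in every library compared, 1.15% lay wholly above control in NE and 1.27% in brimonidine. The NE mean was 2.37 times control (exact permutation p = 0.00833) and the brimonidine mean 3.36 times control (exact permutation p = 0.0167), both unadjusted. Over the groups these are 24, 153 and 219 fragments in 3, 7 and 7 libraries. Calcr never reached the minimum of 1 FPKM and so was outside the limma test. With no minimum its log2 fold change against control was 0.22 in NE (limma adjusted p = 0.0492) and 0.35 with brimonidine (limma adjusted p = 0.0618). Brimonidine and NE differed by 0.13 (exact permutation p = 0.0752), with a p of 0.0169 without brimonidine 4 and 0.0466 without brimonidine 7. Without brimonidine 5 the log2 fold change against control was 0.30 (exact permutation p = 0.0119). Without control 2 it was 0.19 in NE (exact p = 0.0278) and 0.33 with brimonidine (exact p = 0.0556), and the latter p was the same without control 1 or control 3. The FPKM + 1 scale understates the change of a gene this low.

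Counted together, 0 of the 9 genes tested passed both an adjusted p of 0.05 and a 2-fold change for NE against control, where 5.76% of 15950 genes did. At the adjusted p alone 1 of 9 passed, Nfatc1, against 14.1% of all genes in either direction and 2.12% upward. For brimonidine against NE 0 of 9 passed, against 0% of 15707 genes with the 2-fold minimum and 0.00637%, 1 gene, without it. At an unadjusted p of 0.05, 3 of 9 passed there (Tnfsf11, Ctsk and Oscar), against 5.77% of all genes. For brimonidine against control 0 of 9 passed with the 2-fold minimum, against 5.73% of 15947 genes, and Nfatc1 passed without it, against 15.8% of all genes in either direction and 3.47% upward. At an unadjusted p of 0.05, 2 of 9 passed for NE against control, against 32.9%, and 1 of 9 for brimonidine against control, against 35.6%. Both comparisons with control share the same 3 libraries. The split of all genes at adjusted p moved with the scaling: for NE against control 338 were higher and 1909 lower, and 947 and 1510 after quantile normalization, and for brimonidine against control 553 and 1965, and 1448 and 1608.

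The other genes of the pathway fell into 6 lists, with 75 genes tested against control, each counted once. At the adjusted p alone 11 passed for NE against control (14.7%, beside 14.1% of all genes tested) and 14 for brimonidine against control (18.7%, beside 15.8%). With the 2-fold minimum 2 and 3 were called (2.67% and 4.00%, beside 5.76% and 5.73%). These counts include Camk4 and Ramp3, except that Ramp3 is not among the 2 called for NE. Both genes reached 1 FPKM in all 3 controls, 0 of 7 NE and 1 of 7 brimonidine libraries. They thus entered the NE test through the controls alone, where they were high, and the brimonidine test mainly through them. Of 18 further genes of resorption, 0 passed with a 2-fold change in any comparison. At the adjusted p alone, Atp6v1c1, a pump subunit named after its values were seen, fell in NE against control by 0.30 on the log2 scale (limma adjusted p = 0.0471), but passed in only 2 of 10 fits that left out 1 library (without control 2, limma adjusted p = 0.163). Mmp9, the gelatinase of osteoclasts and neutrophils, averaged 352 ± 151 FPKM in controls (SD, n = 3), 494 ± 26.8 FPKM in NE mice (SD, n = 7) and 515 ± 33.9 FPKM in brimonidine mice (SD, n = 7), with a limma adjusted p of 0.125 for NE against control. The controls ran from 183 to 472 FPKM and the NE mice from 449 to 529 FPKM, so these groups overlapped. The proton pump subunit Tcirg1 averaged 46.8, 59.6 and 62.4 FPKM in control, NE and brimonidine, and rose with brimonidine against control by 0.43 (limma adjusted p = 0.0374), but not without control 2 (0.24, limma adjusted p = 0.0721), and in 3 of 10 fits that left out 1 library. NE was above control for Tcirg1 by 0.36, which did not pass (limma adjusted p = 0.0637). Atp6v0d2 averaged 9.76, 9.32 and 10.2 FPKM, Car2, the carbonic anhydrase of resorption, 111, 90.3 and 108 FPKM, and Itgb3, the integrin by which osteoclasts attach, 28.0, 29.0 and 34.3 FPKM. The smallest adjusted p of these 3 in any comparison was 0.357.

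Of 22 genes of RANK signaling 1 was called, the AP-1 gene Fos, and it fell. Fos measured 17.1, 45.8 and 24.2 FPKM in control 1, 2 and 3, 7.29 to 12.5 FPKM in the NE group and 6.59 to 10.9 FPKM in the brimonidine group. All exposed libraries were below all controls, as for 15% of genes tested in NE and 14.3% in brimonidine. Its log2 fold change was -1.31 for NE against control (limma adjusted p = 0.00585) and -1.51 for brimonidine against control (limma adjusted p = 0.0022). Without control 2 these were -0.93 (limma adjusted p = 0.0132) and -1.13 (limma adjusted p = 0.0018), so the NE fall was then under 2-fold on the FPKM + 1 scale, by which genes are called, and no longer called. Fos is also an immediate early gene of neurons. At the adjusted p alone, and named after their values were seen, the adaptor Gab2 rose (0.35 in NE and 0.44 with brimonidine), the kinase Mapk8 fell (-0.41 in both) and Ikbkb rose with brimonidine (0.24). NE was above control for Ikbkb by 0.17, which did not pass (limma adjusted p = 0.152). Without control 2 Gab2 passed with brimonidine (0.37, limma adjusted p = 0.00601) but not in NE (0.27, limma adjusted p = 0.0859), and neither Mapk8 (-0.26 in both, limma adjusted p = 0.0798 and 0.114) nor Ikbkb (0.21, limma adjusted p = 0.0680) passed. Of 10 fits that left out 1 library, Mapk8 passed in 7 in NE and 4 with brimonidine, and Ikbkb in 2. Traf6, the adaptor of RANK, averaged 5.75, 6.71 and 6.62 FPKM in control, NE and brimonidine (limma adjusted p = 0.092 and 0.147 against control). The median log2 fold change of the 22 genes was 0.10 for NE against control, beside -0.04 over all genes tested.

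Of 13 genes of immunoreceptor and calcium signaling, which act on NFATc1, 1 was called, the calcium-dependent kinase Camk4, which neurons express strongly. Camk4 measured 7.05, 19.3 and 7.98 FPKM in control 1, 2 and 3, 0.422 to 0.910 FPKM in the NE group and 0.485 to 2.47 FPKM in the brimonidine group, where brimonidine 5 was highest. Its log2 fold change was -2.73 for NE against control (limma adjusted p = 9.73e-05) and -2.62 for brimonidine against control (limma adjusted p = 0.0011), and without control 2 the latter was -2.20 (limma adjusted p = 0.0012). Camk4 reached 1 FPKM in all 3 controls, 0 of 7 NE and 1 of 7 brimonidine libraries, so it entered the NE test through the controls alone, where it was high, and could not enter it without control 2. The 4 libraries highest in Camk4, the 3 controls and brimonidine 5, were also the highest in summed hindbrain neuron genes, and the part of these in the fall was not tested. At the adjusted p alone, and named after their values were seen, the kinase Syk rose by 0.42 in NE and 0.46 with brimonidine (limma adjusted p = 0.0472 and 0.0305), and Plcg2 by 0.67 and 0.69 (limma adjusted p = 0.0432 and 0.0403). Without control 2 the rises were 0.23 and 0.27 for Syk and 0.35 and 0.37 for Plcg2, and none of these 4 passed, with limma adjusted p of 0.0554 to 0.141. Of 10 fits that left out 1 library, Syk passed in 2 in NE and 5 with brimonidine, and Plcg2 in 1 and 1. Ppp3ca, a calcineurin subunit, fell in both (-0.56 and -0.53), also without control 2 (-0.40 and -0.37, limma adjusted p = 0.0129 and 0.00203). Control 1 and control 3 too were above every exposed library in summed hindbrain neuron genes (166 and 170 FPKM). The part of these genes in the fall of Ppp3ca was not tested. The kinase Btk rose with brimonidine (0.48), but passed in 1 of 10 fits that left out 1 library (without control 2, 0.27, limma adjusted p = 0.130). NE was above control for Btk by 0.46, which did not pass (limma adjusted p = 0.0732). Brimonidine and NE differed by 0.03 (limma adjusted p = 0.979).

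Among 10 lineage factors and repressors none was called. Csf1r, the M-CSF receptor of the lineage, rose by 0.25 in NE and 0.29 with brimonidine against control (limma adjusted p = 0.0497 and 0.0428), and Irf8, a macrophage factor that represses NFATc1, rose with brimonidine by 0.69 (limma adjusted p = 0.0142). NE was above control for Irf8 by 0.50, which did not pass (limma adjusted p = 0.0632). Brimonidine and NE differed by 0.19 (limma adjusted p = 0.857). Without control 2 Csf1r differed by about as much, 0.23 and 0.28, but did not pass (limma adjusted p = 0.109 and 0.0933), and in each comparison with control it passed in 1 of 10 fits that left out 1 library. With brimonidine against control, Irf8 passed in 10 of 10 such fits. Csf1, the ligand of Csf1r, averaged 11.2, 11.6 and 11.0 FPKM in control, NE and brimonidine. Of the 9 macrophage markers, 0 were called, although all 9 estimates were above 0 in both comparisons with control. The same held for all 8 neutrophil genes and all 5 T cell genes tested, and for no other cell type list. The median log2 fold change was 0.16 and 0.22 for the macrophage markers and 0.76 and 0.74 for the neutrophil genes, in NE and with brimonidine. At the adjusted p alone the Fc receptor gene Fcgr1 rose by 0.65 in NE and 0.73 with brimonidine (limma adjusted p = 0.0134 and 0.00318, and without control 2 0.0533 and 0.00286), and Adgre1, a macrophage surface receptor, rose with brimonidine by 0.32 (limma adjusted p = 0.0245). Without control 1 the difference of Adgre1 was 0.27 (limma adjusted p = 0.0512) and without control 3 it was 0.32 (limma adjusted p = 0.0569). The summed level of the 9 ran from 250 to 295 FPKM in the control group and from 283 to 358 FPKM in the exposed groups.

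Among 5 tested partners of the calcitonin receptor, Ramp3, which turns it into an amylin receptor, was called against control with brimonidine, at a log2 fold change of -1.003 (limma adjusted p = 0.0035), and fell by 0.92 on the log2 scale in NE (limma adjusted p = 0.00324). It measured 1.90, 3.15 and 1.71 FPKM in control 1, 2 and 3, 0.414 to 0.941 FPKM in the NE group and 0.322 to 1.11 FPKM in the brimonidine group, so that all exposed libraries were lower, as for 15% and 14.3% of genes tested. Ramp3 reached 1 FPKM in all 3 controls, 0 of 7 NE and 1 of 7 brimonidine libraries, so it entered the NE test through the controls alone, where it was high, and the brimonidine test mainly through them. Without control 2 the difference with brimonidine was -0.81 (limma adjusted p = 0.014), and the call, which lay at the 2-fold minimum, also ended without brimonidine 1, 4, 6 or 7. Ramp2 averaged 3.41, 3.21 and 2.86 FPKM. Of 8 tested partners of OPG and RANKL 0 passed in any comparison. Tnfsf10, which encodes TRAIL, the other ligand of OPG, averaged 6.12, 10.3 and 8.22 FPKM in control, NE and brimonidine (limma adjusted p = 0.0875 and 0.0872 against control). Lgr4, a further receptor of RANKL, averaged 6.44, 4.24 and 4.21 FPKM (limma adjusted p = 0.139 and 0.142). For brimonidine against NE, 0 genes of these 6 lists passed.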

How the data were processed

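RNA sequencing covered cochlear RNA of 17 mice (3 control, 7 NE and 7 brimonidine), from TruSeq stranded mRNA libraries. The authors deposited FPKM values for 35285 genes. The submitters' processing notes name mm10, Trimmomatic, HISAT2, Cufflinks and HTSeq, and whether counting used strand is not given in the sources used here. Multiplied by GENCODE M21 exon lengths, 92.0% of values were whole fragments within 0.05, which gave each library's depth (14457733 to 18288854). Intervals from counts cover counting error only.

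Groups came from the sample labels. Genes that reached 1 FPKM in 3 or more of the compared libraries went into limma 3.58.1 (R 4.3.3, trend) on log2(FPKM + 1), 2 groups a model, with Benjamini-Hochberg adjustment over all genes tested. A gene was called at an adjusted p below 0.05 with a change of 2-fold or more, as in the study. The study's DESeq2 needs counts and was not used. Single genes and the RANKL to OPG ratio were compared by exact two-sided permutation tests (Python 3.11.15, scipy 1.17.1). Correlations over the 14 exposed libraries used 100000 permutations. Scripts were tested on simulated data.

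The genes, the lists and the rule for named genes (all 10 members, called list genes, a set by role, of which 1 gene is not reported here, and the 3 genes most alike in each member) were chosen with earlier results of these data known. Alternatives were pseudocount, filter, scaling, weights, 1 model over all libraries, voom on recovered fragments, the replicate number as a block and leaving out each library, the last of these for named genes outside the 10 chosen after the data were seen. Promoters are RefSeq windows of GRCm38.p6.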

Additional observations from a re-analysis of the deposited data

Results flagged for a closer look

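Ctsk in NE 6, at 183 FPKM, stood apart from the other NE libraries, the nearest of which was at 123 FPKM. The gap was 0.618 of the group's range, above Dixon's 95% critical value of 0.568 for 7 samples. It was the 1 flag among 22 groups examined, and chance flags about 1 in 20 groups. NE 6 was also the highest NE library for Acp5 (81.7 FPKM) and Oscar (3.33 FPKM). Without it the log2 fold change of Ctsk was 0.39 for brimonidine against NE (limma adjusted p = 0.388) and -0.30 for NE against control (limma adjusted p = 0.328).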

How the results depend on the processing

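Of 592 alternative values for the members, 533 kept their direction and their side of the threshold, 32 reversed, 17 lost the threshold and 10 passed it. The number of members called was 0 in every alternative with a 2-fold minimum, and 1 for each comparison with control with no minimum fold change, which was Nfatc1. Nfatc1 stayed above control in all alternatives, but its adjusted p rose to 0.117 in NE and 0.0603 with brimonidine after rescaling to equal totals. Reversed values, none past the threshold, were, for NE against control, Acp5 0.027 (median ratio) and 0.017 (array weights), Oscar 0.0087 (median ratio) and 0.14 (quantile), Dcstamp -0.014 (equal totals) and -0.023 (array weights), and Tnfrsf11a -0.055 (array weights). For brimonidine against control they were Acp5 -0.090 and Ctsk -0.16 (quantile), and Tnfsf11 -0.14 and Tnfrsf11a -0.11 (array weights). The cause was not tested. Tnfsf11 passed for NE against control after quantile normalization (0.71, adjusted p = 0.0465) and in 1 model of all 17 libraries (0.51, adjusted p = 0.0397). Tnfrsf11a passed there after quantile normalization (0.32, adjusted p = 0.0443). With array weights Ocstamp passed for NE against control (0.25, adjusted p = 0.0440), Acp5 for brimonidine against control (0.25, adjusted p = 0.0467), and Tnfrsf11b passed as lower than control (-0.60 in NE, adjusted p = 0.0383, and -0.72 with brimonidine, adjusted p = 0.0118).

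Leaving out each library in turn, NE against control ran from -0.26 to 0.15 for Acp5, -0.42 to 0.094 for Ctsk, -0.29 to 0.10 for Oscar, -0.16 to 0.14 for Dcstamp, -0.048 to 0.20 for Tnfrsf11a and -0.58 to 0.033 for Tnfrsf11b. Brimonidine against NE ran from -0.069 to 0.015 for Ocstamp and -0.014 to 0.090 for Dcstamp. Brimonidine against control ran from -0.089 to 0.32 for Acp5, -0.14 to 0.38 for Ctsk, -0.075 to 0.32 for Oscar, -0.12 to 0.19 for Dcstamp, -0.0026 to 0.36 for Tnfsf11 and -0.092 to 0.15 for Tnfrsf11a. Without control 1 Tnfrsf11b passed there (-0.70, adjusted p = 0.0197). The log2 difference of the RANKL to OPG ratio ran from 0.55 to 1.37 for NE against control, -0.38 to -0.21 for brimonidine against NE and 0.23 to 1.05 for brimonidine against control. Brimonidine against NE passed an exact p of 0.05 without NE 1, NE 7, brimonidine 3 or brimonidine 4, and brimonidine against control without brimonidine 7 (0.75, exact p = 0.0476).

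Libraries of the same number did not deviate together (highest correlation of deviations 0.0832, and 1 of 3, 0 of 7 and 0 of 3 libraries closest to their own number), so the values showed no pairing by number. Whether mice of the same number were handled together is not given in the labels, and these correlations cannot decide it. With the replicate number as a block, Nfatc1 had an adjusted p of 0.409 in NE and 0.458 with brimonidine, and genes called went from 918 to 0 for NE against control and from 913 to 261 for brimonidine against control. With the block on the ratio, an alternative added after the data were seen, the log2 difference was 1.00 for NE against control (exact sign-flip p = 0.5, 3 pairs) and -0.32 for brimonidine against NE (exact sign-flip p = 0.0156, 7 pairs). Genes called without control 2 were 368 and 468. At an adjusted p of 0.05 alone, genes passing for NE against control went from 2247 to 4445 (1 model) and 5970 (array weights), and for brimonidine against control from 2518 to 4592 and 6916. Depth limits Calcr most, at 6 to 55 fragments a library.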
